A study of Mus musculus with 32 samples.

Results

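The regions described here are the peaks of histone H3 lysine 9 trimethylation (H3K9me3) called in male germ cells of Morc1 heterozygous mice at E13.5 and again at E16.5, days of embryonic development, on the 19 autosomes. Both lists together held 124913 peaks, of 581860 autosomal peaks in the 8 lists of the series. An E16.5 peak with at least 1 bp in common with an E13.5 peak was called kept, as was its E13.5 counterpart. An E16.5 peak without such an overlap was called new, and an E13.5 peak without one was called gone. The rule used positions only. By it, 34189 of 74722 E16.5 peaks were new, 6662 of 50191 E13.5 peaks were gone, and 40533 E16.5 peaks met 43529 E13.5 peaks.

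Both groups carried 1 mutant copy of Morc1, genotype Morc1 (+/-), so neither is wild type, and both came from testes of animals with the Mvh-Venus transgene, a fluorescent reporter driven by the promoter of the germ cell gene Mvh (Ddx4). Each group held 2 H3K9me3 ChIP-seq samples in the labels and 1 deposited list. The same stages of Morc1 knockout (KO) animals with the same transgene, and het and KO animals at postnatal days 0 and 3 (P0, P3), served only as lists the rule had not used. Whether samples of a group came from separate animals or litters is not stated in the labels. The lists hold no expression values, so the labelled cell type could not be checked against its markers.

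H3K9me3 marks heterochromatin. It is placed by methyltransferases such as SETDB1, SUV39H1 and SUV39H2, is bound by HP1 proteins, and keeps transposons, satellite repeats and some genes silent. Between these stages male germ cells leave the cell cycle as gonocytes and begin to restore the DNA methylation that primordial germ cells had lost. Morc1 encodes a nuclear ATPase known for transposon silencing in these cells.

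Every comparison is between 1 list and 1 list, so no value has a replicate error and no test between stages was possible. The 95% intervals given (Wilson) hold counting error alone and take each peak as independent of its neighbours, which is not the case. Read depth and peak heights are unknown, and the number and length of peaks can move with both. In both lists the shortest and commonest peak length was 1001 bp, which 22.5% of E13.5 peaks and 15.7% of E16.5 peaks had. Such peaks lie nearest to the limit of calling.

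The sequences below are examples of gene starts at which the mark was called at 1 stage only. They are shown because the loss and the gain fell on gene starts of different base composition. They were picked and do not stand for all such starts. Each is the 200 bases before the annotated start on the gene's strand, 5′ to 3′, from RefSeq on GRCm38.p6, with every CpG dinucleotide in capitals. In the 4 starts covered at E13.5 and not at E16.5, CpG was dense. Mael (chr1:166238745-166238944, minus strand) encodes a piRNA pathway protein, Sycp1 (chr3:102936101-102936300, minus strand) a protein of the synaptonemal complex, Slc25a31 (chr3:40708671-40708870, plus strand) an ATP carrier of male germ cells, and Hoxd10 (chr2:74691691-74691890, plus strand) a limb and axial patterning factor.
Mael: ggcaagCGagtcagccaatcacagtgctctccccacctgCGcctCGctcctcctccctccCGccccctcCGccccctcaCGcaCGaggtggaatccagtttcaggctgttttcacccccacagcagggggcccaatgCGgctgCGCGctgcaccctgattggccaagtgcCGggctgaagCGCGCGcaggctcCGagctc
Sycp1: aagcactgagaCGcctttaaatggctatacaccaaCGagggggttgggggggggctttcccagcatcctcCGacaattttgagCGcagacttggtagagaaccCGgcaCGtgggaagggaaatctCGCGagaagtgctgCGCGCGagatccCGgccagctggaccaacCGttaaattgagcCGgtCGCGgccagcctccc
Slc25a31: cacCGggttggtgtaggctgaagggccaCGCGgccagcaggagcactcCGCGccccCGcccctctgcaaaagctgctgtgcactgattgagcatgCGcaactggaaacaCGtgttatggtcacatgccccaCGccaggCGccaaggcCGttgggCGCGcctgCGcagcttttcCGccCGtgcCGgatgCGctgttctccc
Hoxd10: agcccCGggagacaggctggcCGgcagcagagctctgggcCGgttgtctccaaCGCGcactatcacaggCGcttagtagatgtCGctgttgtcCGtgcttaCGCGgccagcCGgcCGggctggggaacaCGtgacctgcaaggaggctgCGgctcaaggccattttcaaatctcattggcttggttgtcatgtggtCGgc
These hold 15, 16, 18 and 15 CpG. The next pair was covered at E16.5 and not at E13.5, in a prolactin family gene of the placenta, Prl6a1 (chr13:27312415-27312614, plus strand), and an olfactory receptor gene, Olfr1006 (chr2:85678742-85678941, minus strand).
Prl6a1: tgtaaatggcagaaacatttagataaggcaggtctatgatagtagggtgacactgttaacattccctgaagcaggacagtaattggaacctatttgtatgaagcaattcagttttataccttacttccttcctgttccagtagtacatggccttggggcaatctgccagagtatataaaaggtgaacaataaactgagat
Olfr1006: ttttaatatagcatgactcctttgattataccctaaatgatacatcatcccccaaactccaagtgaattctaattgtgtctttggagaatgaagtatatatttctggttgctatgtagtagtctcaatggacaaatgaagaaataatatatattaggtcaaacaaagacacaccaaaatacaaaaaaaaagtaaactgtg
Both of these hold 0 CpG in the bases shown.

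The length in called peaks rose from 159.7 Mb at E13.5 to 292.6 Mb at E16.5, a ratio of 1.83. Of the E13.5 length, 88.7% (141.6 Mb) was called again at E16.5. The E16.5 list added 151.0 Mb, of which 81.5 Mb lay beside kept peaks and 69.5 Mb lay in new peaks. The part beside kept peaks was 54.0% of the added length under the 1 bp rule. It was 48.4% without peaks of the commonest length and 19.5% when at least 50% of a peak had to be in common. Both choices count as new some peaks that grew. The first does so for peaks grown from a 1001-bp peak alone, the second for peaks less than 50% covered at E13.5. Part of each shift thus follows from the definition, and these alternatives cannot settle which part was larger. Length that was called at E13.5 only came to 18.1 Mb, of which kept peaks gave up 9.30 Mb and gone peaks 8.80 Mb. Added length was thus 8.34 times lost length. Of 2408 windows of 1 Mb, 2324 (96.5%, interval 95.7% to 97.2%) had more called length at E16.5. Per chromosome the ratio ran from 1.43 on chromosome 7 to 2.08 on chromosome 14.

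**Figure D1:**
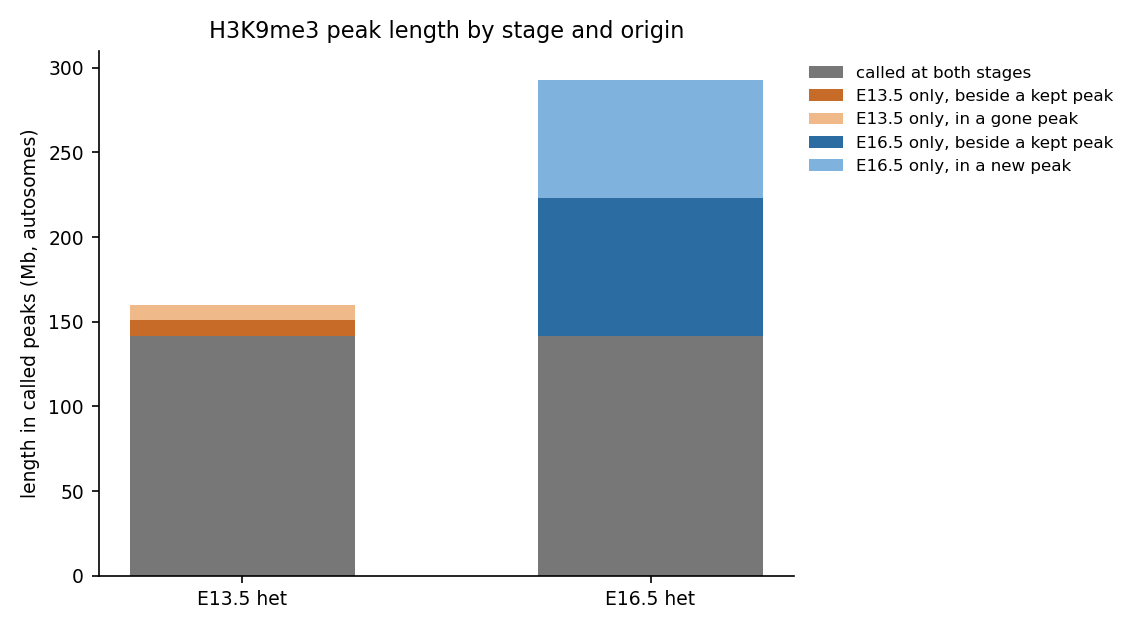
Autosomal length in called H3K9me3 peaks (Mb, y axis) in the het lists of both stages, stacked by origin, with 1 list per stage and no error bars. The shared 141.6 Mb is drawn in grey; the E16.5 bar adds 81.5 Mb beside kept peaks and 69.5 Mb in new peaks, and the E13.5 bar adds 9.30 and 8.80 Mb.

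Existing peaks mostly grew. Of the kept peaks, 36540 met exactly 1 peak of the other stage. Of these pairs 80.1% (79.7% to 80.5%) were longer at E16.5, and their median length went from 2031 to 3440 bp. The median change was an added 952 bp, with quartiles of 190 and 2146 bp. The left and right edges moved outward by medians of 279 and 271 bp. In 47.1% of pairs both edges moved outward, in 44.8% one moved outward and the other inward, and in 7.79% both moved inward. At least 2-fold growth was found in 27.7% of pairs, and 430 pairs shrank to at most 0.5 of the E13.5 length.

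The change differed with the length a peak had at E13.5. Peaks of 1001 bp, when kept, reached a median of 2040 bp, and peaks of 2 to 3 kb added a median of 1082.5 bp. Peaks of 5 to 10 kb added a median of 581 bp, and for peaks over 10 kb the median change was -12 bp, with 48.7% longer. The shortest length in both lists is 1001 bp, so a kept peak of that length could not shrink, and a longer peak meets the 1 bp rule more easily. By the same classes, 34.6% of 1001-bp peaks were gone at E16.5, 13.9% of those up to 2 kb, 4.54% of those of 2 to 3 kb, and 2 of 2231 peaks over 10 kb.

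**Figure D2:**
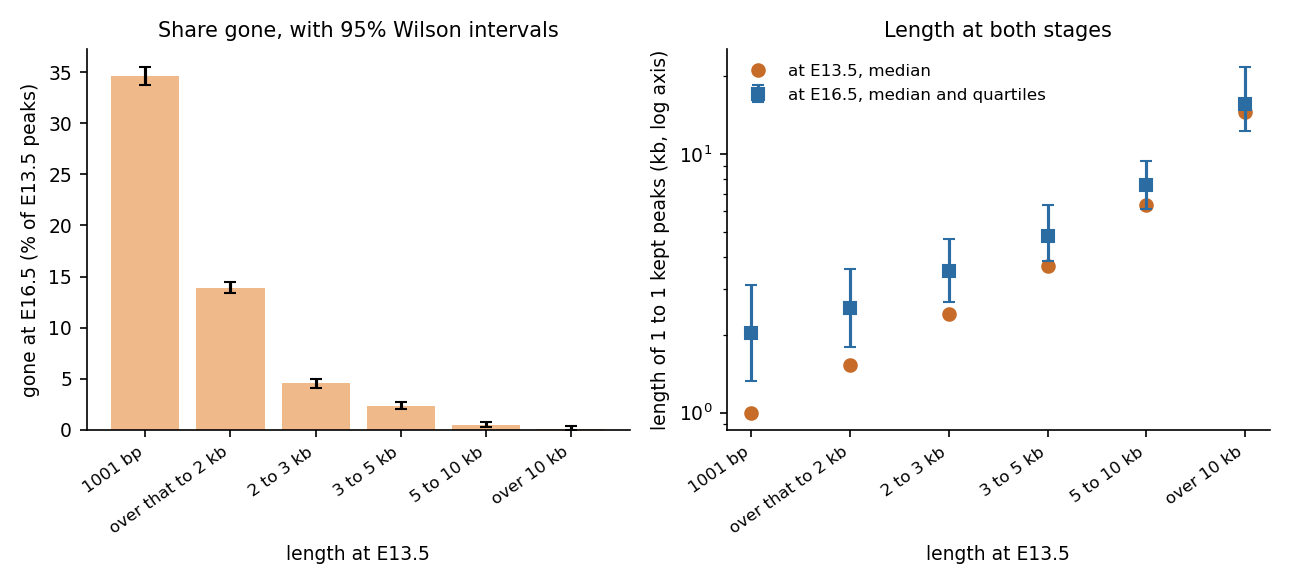
Left, the share of E13.5 peaks gone at E16.5 (%, y axis) by E13.5 length, with 95% Wilson intervals as bars; right, median length of 1 to 1 kept peaks in kb on a log axis, with points for E13.5 and squares with quartile bars for E16.5. The share gone goes from 34.6% at 1001 bp to 0.0896% over 10 kb, and both medians nearly meet in the longest class.

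Spreading also closed gaps. A single E16.5 peak took in 2 or more E13.5 peaks in 2732 cases, which joined 6248 E13.5 peaks and closed 3516 gaps with a median of 2846.5 bp and a sum of 12.9 Mb. The reverse, 1 E13.5 peak in 2 or more E16.5 pieces, occurred 498 times, and in 103 sets several peaks met several. Joined peaks had a median length of 12.999 kb, and the longest closed gap was 25.1 kb. The most E13.5 peaks in one E16.5 peak was 9, at chr12:7281324-7343825 between Klhl29 and Apob, where 31.7 kb of called length became a single peak of 62.5 kb. The KO lists held 59.2 kb there at E13.5 already and 52.5 kb at E16.5, and the P0 het list held 26.4 kb. At chr13:61258853-61321559, between the placental cathepsin genes Cts8 and Cts7, 8 peaks with 37.7 kb became 1 of 62.7 kb, with 60.4 kb called in the E16.5 KO list.

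The most extended 1 to 1 peak lay at chr5:9985437-10029608, between the glutamate receptor gene Grm3 and Gm5861, and went from 2.78 kb to 44.2 kb. The E16.5 KO list held 34.8 kb of it and the P3 het list 3.79 kb. A peak at chr4:67368750-67404504, between the innate immune receptor gene Tlr4 and Brinp1, went from 6.69 kb to 35.8 kb, with 30.5 kb in the E16.5 KO list and 17.5 kb in the P3 het list. In both regions the long call appeared in both E16.5 lists and was shorter after birth. Both peaks were picked for their extension in the E16.5 het list, a choice that favours shorter calls elsewhere. The most shortened peak lay over Lbx1, a homeobox gene of muscle precursors and spinal neurons, at chr19:45223758-45234918. It went from 11.2 kb to 1.00 kb in het, and the KO lists went from 10.2 kb to 1.25 kb there.

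New peaks were shorter than kept ones. Their median length was 1528 bp against 3675 bp for kept E16.5 peaks, and 28.6% of them had the shortest length against 4.84%. New peaks made up 45.8% (45.4% to 46.1%) of all E16.5 peaks, 18.0% (17.5% to 18.4%) of those of at least 3 kb and 3.43% of those of at least 10 kb. The median gap from a new peak to the nearest E13.5 peak was 15.8 kb (quartiles 6.99 and 34.4 kb). Midpoints within 10 kb of an E13.5 peak made up 32.0%, compared with 31.3% of bases not called at E13.5, and within 50 kb the shares were 84.7% and 77.5%. Within 5 kb they were 10.7% and 18.5%, a range in which the rule itself removes peaks that touch an E13.5 peak. At the edge of the rule, 38 new peaks lay 100 bp or less from an E13.5 peak, and 45 kept E16.5 peaks had 100 bp or less in common with one.

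Most new peaks were called in other lists of the same or later stages. In the E16.5 KO list 73.3% (72.9% to 73.8%) were called, and in the E13.5 KO list 5640 of 34189. The P0 het list held 63.8% and the P3 het list 52.4%, while 32.4% were in neither. Kept E16.5 peaks were called in 86.7% to 97.3% of cases in each of the other 6 lists. New peaks of at least 3 kb were called in 95.5% of cases in the E16.5 KO list and in 84.4% in the P0 het list. New peaks of the shortest length were called in 42.5% and 43.1%.

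The longest new peak, 28.3 kb at chr16:82514202-82542550 between the cell adhesion gene Ncam2 and Mrpl39, held no called base at E13.5 in het and 1.00 kb in KO. The E16.5 KO list held 28.2 kb of it, P0 het 14.4 kb and P3 het 10.3 kb. The next, 22.4 kb at chr8:55895308-55917699 over Adam29, a testis-expressed membrane metalloprotease gene, held 20.7 kb in the E16.5 KO list, 1.95 kb in P0 het and 0.949 kb in P3 het. Both were longest in the 2 lists of E16.5, but they were picked for their length in the E16.5 het list. The other 3 of the 5 longest lay between genes, at 22.1, 21.2 and 20.008 kb, with 14.7, 18.1 and 12.6 kb called in the E16.5 KO list.

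Gone peaks were short, and most were not called in the het lists after birth. They made up 13.3% (12.98% to 13.57%) of E13.5 peaks, with a median length of 1001 bp against 2095 bp for kept E13.5 peaks. Among E13.5 peaks of at least 3 kb 200 of 14309 were gone (1.40%). The E13.5 KO list, which the rule had not used, held 63.1% of gone peaks, and 96.0% of the 200 long ones. The E16.5 KO list held 12.2%, the P0 het list 22.7% and the P3 het list 20.5%. In neither het list after birth were 70.2% called. With the E16.5 list cut to its longest peaks, as many as at E13.5, 23.8% of E13.5 peaks were gone and the P0 het list held 39.6% of them.

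The longest gone peak was 12.4 kb at chr1:5338161-5350607 between Atp6v1h and Oprk1, and it was absent from the E16.5 het list alone: the E16.5 KO list held 9.85 kb and the P0 het list 9.07 kb. The next was 11.4 kb at chr19:25531837-25543211 within Dmrt1, which encodes a transcription factor of male germ and Sertoli cells. The E13.5 KO list covered 11.3 kb of it, the E16.5 KO and P0 het lists no base, and the P3 het list 6.42 kb. A gone peak of 8.15 kb within Vcan, a matrix proteoglycan gene, at chr13:89658448-89666601 had 7.93 kb of KO coverage at the earlier stage and 1.00 kb at the later.

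**Figure D3:**
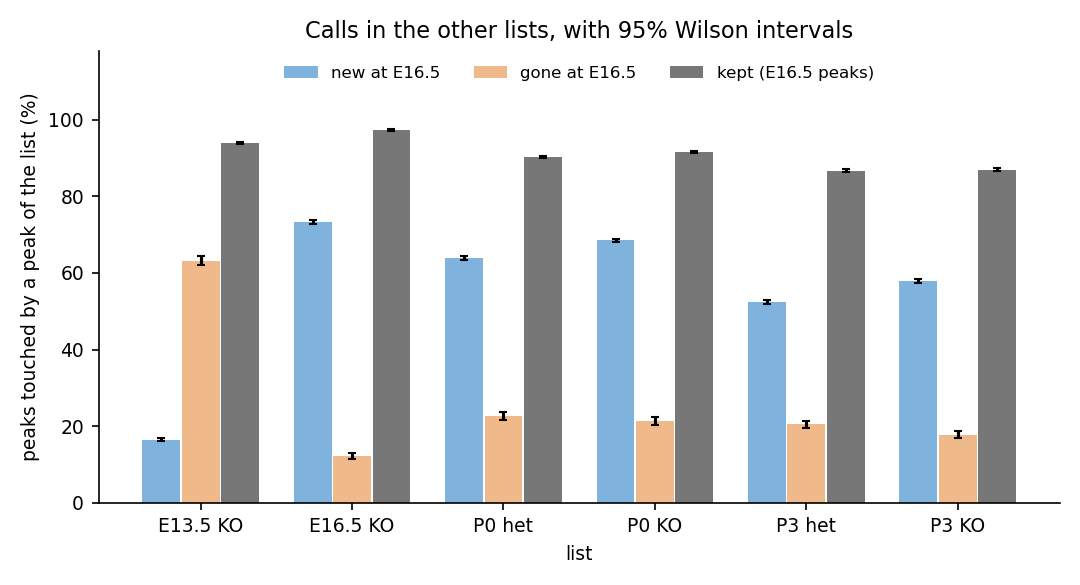
Share of new, gone and kept peaks (%, y axis) touched by a peak of each of 6 lists that the rule did not use (x axis), with 95% Wilson intervals as bars. New peaks go from 5640 of 34189 in E13.5 KO to 73.3% in E16.5 KO, and gone peaks from 63.1% to 12.2%.

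Gain and loss differed in how they fell over the genome. In windows of 1 Mb that hold the midpoint of no protein-coding gene the called share of bases went from 13.46% to 27.63%, a ratio of 2.05, and 3.12% of E13.5 peaks were gone. In windows with 16 to 30 genes the called share went from 5.50% to 7.74%, a ratio of 1.41, and 22.6% of E13.5 peaks were gone. The order was not even throughout: windows with over 30 genes had a ratio of 1.59 and 20.5% gone. New peaks were 49.9% of E16.5 peaks in windows without a gene midpoint, 40.0% with 16 to 30 genes and 42.4% with over 30. The gone shares by window were not matched for peak length, with which the share gone varied. Midpoints of gone peaks lay in protein-coding gene bodies in 48.3% of cases (47.1% to 49.5%), against 26.6% of new peaks, 23.2% of kept E13.5 peaks and 40.9% of all bases. Among peaks of the shortest length the shares were 45.5% for gone, 27.8% for new and 25.9% for kept E13.5 peaks. A gene start was touched by 3.33% of gone peaks, 0.524% of new peaks and 1.22% of kept E13.5 peaks.

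The window with the largest gain, chr16:80000001-81000000 between Tmprss15 and Ncam2, holds no protein-coding gene and went from 200.7 to 612.0 kb. The window with the largest loss, chr6:130000001-131000000, holds Klra genes for natural killer cell receptors and went from 366.8 to 305.2 kb. It was followed by the window of the clustered protocadherin genes on chromosome 18, from 260.0 to 209.7 kb, and a window of Scgb secretoglobin genes on chromosome 7, from 393.8 to 347.4 kb.

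For genes, the called length in the body was compared between stages, and a difference of at least 1 kb was called gained or lost. These calls are sizes, not tests. Of 20665 autosomal protein-coding genes, 4035 (19.5%) gained and 1551 (7.51%) lost, and 6345 genes had called length at E13.5 against 6813 at E16.5. With the E16.5 list cut to its longest peaks, as many as at E13.5, 2769 genes gained and 2305 lost. Over the same step the KO lists gave 3251 genes gained (15.7%) and 2456 lost (11.9%). Of the genes that gained in het 70.1% gained in KO and 254 lost there, and of those that lost in het 70.0% lost in KO and 41 gained. Long genes gained most: 92.9% of genes over 300 kb and 3.46% of genes under 10 kb. Loss also varied with length. It was called in 3.27% of genes under 10 kb, 12.9% of those of 30 to 100 kb and 4.32% of those over 300 kb.

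The largest gains by length fell in genes with long bodies, of 532.6 kb (Khdrbs2) to 2270.5 kb (Ptprd). Fstl5, a follistatin-like secreted protein gene, went from 140.5 to 375.2 kb (22.1% to 59.0% of its body), with 188.6 kb at P0 and 142.4 kb at P3 in het. Ptprd, a receptor tyrosine phosphatase of synapses, went from 66.7 to 297.2 kb. Khdrbs2, a neuronal splicing regulator gene, went from 100.5 to 285.8 kb. The E16.5 KO list held 339.1, 215.9 and 234.7 kb of these 3 genes. Naaladl2, Csmd1, Nrg3, Dpp10, Galntl6, Pcdh15 and Cdh18 completed the 10, with gains of 139.0 kb (Cdh18) to 229.0 kb (Naaladl2). In the KO lists each of the 10 gained less than in het, from 24.0 kb (Csmd1, 362.8 to 386.8 kb) and 60.4 kb (Nrg3) to 172.1 kb (Naaladl2). In all 10 the P3 het list held less than the E16.5 het list. The 10 were ranked by their gain in the E16.5 het list, a choice that favours lower values in every other list.

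In the list of synaptic and adhesion genes (contactins, cadherins, teneurins and others) 64 of 84 gained (76.2%, beside 19.5% of all genes) and 6 lost (7.14%, beside 7.51%), with a median change of 12.8 kb beside a median of 0 over all genes tested. Their bodies had a median of 382 kb against 17.5 kb for all genes. Of all genes over 300 kb 92.9% gained, with a median change of 14.6 kb, and of those of 100 to 300 kb 61.5%, so the share of the list lies in the range of genes of its length. Cdh12, a neuronal cadherin gene, went from 35.4 to 167.1 kb. Among the 6 that lost were Grm4, a glutamate receptor gene (9.89 to 2.55 kb), and Cdh1, the epithelial cadherin gene (7.27 to 4.55 kb).

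As a share of the body, among genes of at least 10 kb, 5 of the 10 largest gains were in receptor genes of smell and pheromone sensing. Vmn2r66, a vomeronasal receptor gene, went from 8.05% to 89.6% of its body, and Vmn2r94 from 4.80% to 66.2%. Both were lower after birth, with 7.49 and 7.77 kb at P0 against 15.6 and 27.6 kb at E16.5, the stage by which they were ranked. Serpinb6e, a serine protease inhibitor gene, went from 19.7% to 100%, with 7.38 kb of its 11.1 kb in the E16.5 KO list. Neurod4, a proneural transcription factor gene, went from 11.0% to 78.7% and kept 8.69 kb at P3 against 9.53 kb at E16.5. Bcam, an adhesion molecule gene, Vmn2r93, Tmem211, Mettl27, Olfr27 and Vmn2r76 also ranked in the first 10.

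Among the receptor families, 40 of 122 Vmn2r genes gained (32.8%) and 13 lost (10.7%), and 8 of 230 Vmn1r genes gained (3.48%) and 1 lost. Of 1100 olfactory receptor genes 64 gained (5.82%) and 2 lost, and the number with any called length went from 213 to 384. Of all genes 19.5% gained and 7.51% lost, but a call needs a change of 1 kb within the body. The median body was 0.95 kb for olfactory receptor genes and 0.924 kb for Vmn1r genes, against 17.5 kb for all genes. Many members of these 2 families thus could not be called either way, and their shares cannot be set beside those of all genes. Of 53 genes of placental clusters (prolactins, cathepsins, Ceacam and Psg genes), 15 gained (28.3%) and 0 lost: Cts8 went from 1.43 to 6.79 kb and Ceacam13 from 0 to 3.38 kb. Psg29, a pregnancy glycoprotein gene, was already covered over 12.2 of 12.3 kb at E13.5. Of 93 cytochrome P450 genes 30 gained and 12 lost, with Cyp2j12 at 1.92 and 17.4 kb and Cyp3a44 at 18.4 and 12.0 kb.

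Among the lists, those with the highest share of losses were the clustered protocadherins and the developmental regulators, which hold few of the 1551 genes that lost. In the list of HOX, other homeobox and further patterning transcription factor genes, 27 of 54 lost (50%, beside 7.51% of all genes), 1 gained, and 35 members with called length at E13.5 became 8. Their summed called length went from 88.2 to 21.5 kb. Lhx5, a forebrain homeobox gene, went from 6.71 kb to 0, Hoxa3, a patterning gene of the pharyngeal arches, from 3.82 kb to 0, and Tbx2, a T-box repressor gene, from 3.77 kb to 0. Six3, an eye and forebrain regulator gene, went from 3.36 kb to 0, and all 4 also had no called base in E16.5 KO and P0 het. The E13.5 KO list held 8.54, 14.8, 3.39 and 9.23 kb of them. The member that gained was Pax5, a B cell factor gene, from 6.13 to 9.02 kb. In KO 43 of the 54 lost over the same step and 47 members with called length became 8.

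Of 57 clustered protocadherin genes, whose products give neurons surface identity, 30 lost (52.6%, beside 7.51% of all genes) and 6 gained. The median body of this list was 90.3 kb, and of all genes of 30 to 100 kb 12.9% lost. Pcdhga1 went from 40.9 to 6.24 kb in het and from 25.4 to 3.81 kb in KO, with 3.76 kb at P0 in het. The bodies of Pcdhga1 to Pcdhga5, Pcdhgb1 and Pcdhgb2, 7 of the 10 largest losses, are nested and end at nearly the same base. The body of Pcdhga5, 147.5 kb long, lies within all the others, so the same bases count for each. The other 3, Gm37013, Gm38666 and Gm38667, are long overlapping models of the alpha cluster that reach into the gamma cluster. Pcdhac1 went the other way, from 9.46 to 21.5 kb. The next largest gains, of Pcdha12, Pcdha11 and Pcdha10, are in bodies that end at the same base as Pcdhac1. The counts of 30 and 6 thus take some bases more than once and are not counts of independent genes.

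Outside these groups, by share of the body among genes of at least 10 kb, Etaa1 had the largest loss. It encodes an activator of the ATR kinase at stalled replication forks, and its called length went from 14.2 to 2.26 kb (93.9% to 14.9% of the body) in het and from 14.2 to 5.47 kb in KO. Noc2l, a histone acetyltransferase inhibitor gene, went from 5.29 kb to 0, Prdm12, a regulator gene of pain-sensing neurons, from 6.59 kb to 0, and Gstz1, a glutathione transferase gene, from 5.26 kb to 0. All 3 were at 0 in the E16.5 KO and P0 het lists. This ranking by lost share was added after the values were seen.

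**Figure D4:**
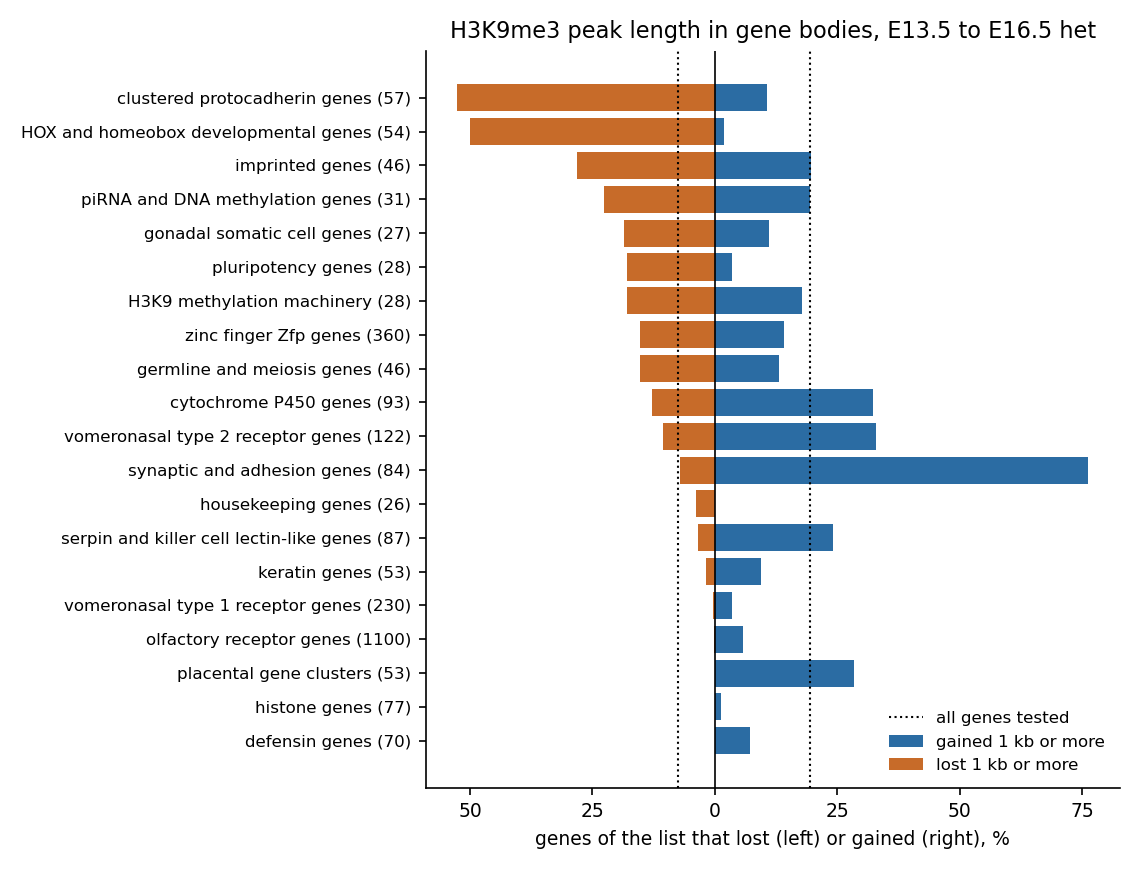
Percent of the genes of each list (number matched in brackets) that lost (left, orange) or gained (right, blue) at least 1 kb of called length from E13.5 to E16.5 in het; dotted lines mark all 20665 genes (7.51% lost, 19.5% gained). Clustered protocadherin and homeobox lists reach 52.6% and 50% lost, and the synaptic list 76.2% gained. Shares are not matched for body length, and bodies of clustered protocadherin genes overlap.

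At gene starts the base composition of gain and loss differed. RefSeq windows of 300 bases, 250 before and 50 after the start, were taken for 16457 of the genes, 20085 windows in all. A peak touched 384 windows at E16.5 only (gained, 1.91%), 310 at E13.5 only (lost, 1.54%) and 512 at both stages (kept, 2.55%). With the E16.5 list cut to its longest peaks 315 windows gained and 337 lost, so which was more frequent depends on list size. Gained windows held a median of 1 CpG, and kept windows 1. Receptor families supplied a large part of both. Of 938 olfactory receptor windows 136 gained (14.5%) and 155 were kept. Of 205 Vmn1r windows 15 gained (7.32%) and 37 were kept, and of 116 Vmn2r windows 11 gained (9.48%) and 31 were kept. CpG content of the gained and kept windows without these families is not given here. Lost windows held a median of 16 (quartiles 8 and 26), and windows called at neither stage 15. The sequences shown above are picked examples of lost and gained starts. The lost ones have 21 to 24 CpG in their windows, and each window holds the letters CACGTG, against 11.9% of all lost windows. In the E13.5 KO list 224 of the 310 lost windows were called, in the E16.5 KO list 21, in P0 het 26 and in P3 het 16. Of the gained windows 281 were called in the E16.5 KO list and 74 in the E13.5 KO list. The KO lists lost 561 windows (2.79%) and gained 302 (1.5%) over the same step.

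**Figure D5:**
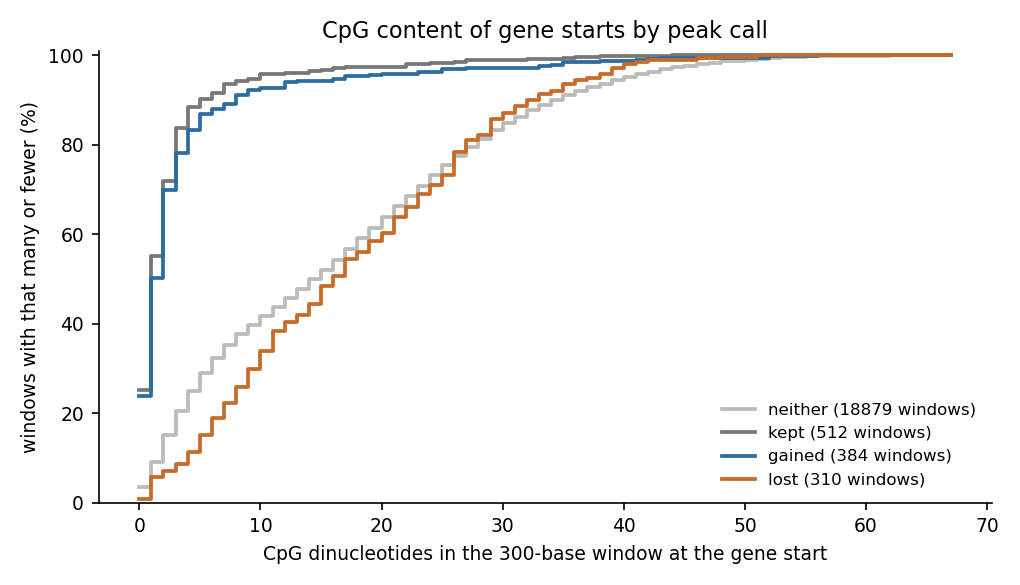
Cumulative share of gene start windows (%, y axis) by number of CpG dinucleotides in the 300 bases (x axis), for windows called at E16.5 only (gained, 384), E13.5 only (lost, 310), both (kept, 512) and neither (18879). Gained and kept curves rise at few CpG, with medians of 1, and the lost curve, with a median of 16, lies close to the curve of windows called at neither stage.

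Germline genes were among the starts that lost. Of 51 windows of germline and meiosis genes 8 lost (15.7%, beside 1.54% of all windows), 0 gained and 1 was kept. They belong to Boll and Brdt, regulators of spermatid formation, Mael, Meioc, needed to hold meiotic prophase, Slc25a31, Sycp1 and Sycp2 of the synaptonemal complex, and Tex101, a sperm surface maturation factor gene. The E13.5 peak was 2.125 kb long over the start of Mael, 1.26 kb over Sycp1, 1.001 kb over Slc25a31 and 2.777 kb over Brdt. All 8 windows were called in the E13.5 KO list, 1 (Brdt) in the E16.5 KO list, and 0 in the het lists after birth.

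The lost germline windows held 10 to 39 CpG. The letters CACGTG, the E-box form bound by MAX and MGA complexes, were in 4 of the 8, and in 7.89% of all windows and 11.9% of lost windows. This motif reads the same on both strands and holds a CpG. Its share in germline windows that did not lose, or in windows of similar CpG, is not given here. No link between the motif and the loss can thus be drawn. Of the sequences shown, those of Sycp1, Slc25a31 and Hoxd10 hold it, and Mael has it in its window but not within the bases shown. The letters GCGGGAA, searched on both strands as an E2F6 type site, were in 3 of the 8 and in 6.05% of all windows. A match is a string of letters, not a bound site.

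Over whole bodies the germline list was mixed: 6 of 46 gained (13.04%, beside 19.5% of all genes) and 7 lost (15.2%, beside 7.51%). Mei4, a gene for meiotic break formation, went from 15.2 to 72.1 kb within a body of 342.3 kb. Sycp1 went from 6.61 to 3.67 kb and was at 8.45 kb at P0 and 11.2 kb at P3, so its body regained length that its start did not. Tex14, a gene of the bridges between germ cells, went from 2.89 kb to 0 and stood at 8.28 kb at P3. Prdm9, which places meiotic crossovers, went from 1.30 kb to 0 and remained at 0 in both later het lists.

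Of 31 piRNA and DNA methylation genes 6 gained (19.4%, beside 19.5% of all genes) and 7 lost (22.6%, beside 7.51%). The median body of this list was 49.0 kb, and of all genes of 30 to 100 kb 12.9% lost. Starts of Asz1, Henmt1, Mael and Mov10l1, all of the piRNA pathway, lost (4 of 42 windows, 9.52% beside 1.54% of all, with Mael also in the germline list), and all 4 were called in E13.5 KO and 0 in E16.5 KO. The body of Mov10l1, a piRNA helicase gene, went the other way, from 10.4 to 15.7 kb. Of 28 genes of the H3K9 methylation machinery 5 gained and 5 lost, 17.9% each. Their median body, 42.2 kb, lies in the same range of length. Atf7ip, the partner of SETDB1, went from 8.77 to 1.30 kb and was at 7.63 kb at P3. Tasor, a subunit of the HUSH complex, went from 4.29 to 1.00 kb. Both lost the call at their starts. Morc2b, a relative of Morc1, went from 1.997 to 5.09 kb.

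Of 46 imprinted genes 13 lost (28.3%, beside 7.51% of all genes) and 9 gained (19.6%, beside 19.5%). The median body of this list was 39.4 kb, and of all genes of 30 to 100 kb 12.9% lost. Kcnq1, whose locus carries a maternal imprint centre, went from 63.9 to 50.5 kb, Usp29 from 14.4 to 5.97 kb and Atp10a from 4.73 kb to 0. Grb10, a growth inhibitor gene, went from 7.44 to 12.3 kb. At starts 7 of 61 windows lost (11.5%, beside 1.54% of all windows), those of Mest, Mkrn3, Plagl1, Sfmbt2, Snrpn and Snurf, of which the last 2 share a transcript. Of the 7, 6 were called in E13.5 KO, 0 in E16.5 KO and 0 in the het lists after birth. The starts of Mest, Plagl1 and Snrpn are known imprint control regions, methylated on the maternal copy in somatic cells.

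Pluripotency genes gave 1 gain, Lin28b (0 to 4.38 kb), and 5 losses of 28 (17.9%, beside 7.51% of all genes), among them Prdm1, the primordial germ cell determinant (3.54 kb to 0), and Tbx3 (3.10 kb to 0). Genes of gonadal somatic cells, listed as markers of other cells of the testis, gave 3 gains and 5 losses of 27 (18.5%). Myh11 of smooth muscle went from 1.90 to 7.33 kb and Dhh of Sertoli cells from 5.64 to 2.72 kb. No start of that list gained or lost.

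Ddx4, the germ cell RNA helicase gene whose promoter drives the reporter, was covered in het over 50.03 kb of its 54.3 kb body at the earlier stage and 49.97 kb at the later (92.1% and 92.0%). The KO lists covered 47.5 kb and then 6.79 kb, and in het it was covered over 11.7 kb at P0 and 50.2 kb at P3. The E16.5 het peak over its start was 84.5 kb long. Reads of the Mvh-Venus transgene that map to Ddx4 cannot be told apart from those of the gene in these lists.

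Of 919 autosomal miRNA hairpins 23 were touched at E16.5 only (2.5%), 7 at E13.5 only (0.762%) and 32 at both stages. The E16.5 KO list held 19 of the 23 and none of the 7. The gained hairpins included the 3 of the Mir106b cluster at chr5:138165321-138165818 on the minus strand, which lies in an intron of the replication gene Mcm7. All 3 were called in both E16.5 lists and in none of the other 6. Their main arms are shown because a seed is shared, with bases 2 to 8, the seed, in capitals.
mmu-miR-106b-5p: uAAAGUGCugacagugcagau
mmu-miR-93-5p: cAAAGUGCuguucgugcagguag
mmu-miR-25-3p: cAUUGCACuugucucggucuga
The first pair has the seed AAAGUGC, and miR-25-3p has AUUGCAC. In the imprinted miRNA cluster of chromosome 12, Mir543 was touched at E13.5 only and the neighbouring Mir495 at E16.5 only, while Mir127, Mir136, Mir432, Mir433 and Mir434 were touched at both stages. Lists of the E16.5 KO cells held neither Mir543 nor Mir495, and that of E13.5 KO held both.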

How the data were processed

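H3K9me3 ChIP-seq peak lists were analysed, 1 for each genotype and stage. The positions are base pairs as the authors deposited them: 3 columns per peak, with no score, on mm10 per the submitters' processing notes, which name bcl2fastq 2.20, cutadapt 1.18, Bowtie2 2.3.4.1, deepTools 3.5.0 and HOMER 4.10 with no roles. Caller settings, control use and replicate handling are not given in the sources used here, and read depth is unknown.

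Peaks on autosomes were compared with at least 1 bp in common counting as overlap. Genes, starts and sequences came from RefSeq GRCm38.p6, and printed coordinates are 1-based. Scripts used Python 3.11.15, pandas 2.3.3 and numpy 2.4.6, and were tested on simulated peaks. With 1 list per group no test was run. Shares carry 95% Wilson intervals.

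Members, gene lists and the naming rule were chosen with earlier results of these data known. Named were the 10 genes with the largest gain, loss and gained share, genes at the 5 longest or most altered peaks of each kind, and up to 4 extremes per list. Gene starts and miRNAs shown as sequences were chosen after their values were seen. A result for 1 region and 1 gene is not reported here.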

Additional observations from a re-analysis of the deposited data

How the results depend on the processing

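No paired analysis was possible because each group has 1 list and no replicate number, and for the same reason no replicate could be left out. Of 73 alternatives computed, 40 kept the value within its interval, its rounding or 1.5-fold of the count. A reversal was looked for only in the ratio of covered length and the median change, and neither reversed. In 2 alternatives, without the commonest length and with 50% in common, new peaks and not growth beside kept peaks made up the larger part of the gain. Both count as new some peaks that had grown from an E13.5 peak, so they cannot settle which part was larger. Joining peaks under 1 kb apart could alter nothing, since neither list has any. Each result under that alternative is counted among the 40, so the 40 overstate how stable the results are. Without peaks of the commonest length the ratio of covered length was 1.89, new peaks were 47.2%, gone peaks 9.44%, gain beside kept peaks 48.4%, the median change 1036 bp, new peaks called in E16.5 KO 87.5% and in P0 het 73.9%, and gone peaks called in P0 het 31.2%. With the E16.5 list cut to its 50191 longest peaks these were, in the same order, 1.65, 30.2%, 23.8%, 63.1%, 1209 bp, 92.4%, 80.4% and 39.6%, and 23.3% of new peaks had their midpoint in a gene. With at least 50% of the peak in common, new peaks were 62.7%, gone peaks 15.5%, gain beside kept peaks 19.5%, new peaks called in E16.5 KO 75.7% and in P0 het 65.7%, and new peaks in genes 24.7%. With X and Y added the ratio was 1.84, gain beside kept peaks 53.7%, the median change 956 bp, new peaks called in E16.5 KO 73.9% and in P0 het 64.3%, and new peaks in genes 25.8%. With the cut list 2769 genes gained and 2305 lost, and 315 gene starts gained and 337 lost, all within 1.5-fold and counted among the 40. A 2 kb difference left 2582 genes that gained and 505 that lost. With peaks under 1 kb away kept, an alternative chosen after seeing the data as were those for gene starts and single lists, new peaks were 45.3% and gone peaks 12.6%. The limits are the single list per stage and the unknown depth: a deeper or more enriched E16.5 library cannot be told apart from the stage in these lists.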

Other observations

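On the X chromosome, outside the autosomal comparison, 2390 peaks at E13.5 became 4053 at E16.5 in het, and called length went from 6.14 to 13.4 Mb, a ratio of 2.18. New peaks were 48.2% (46.7% to 49.7%) and gone peaks 7.87% (6.85% to 9.01%). The Y chromosome held 47 peaks and then 41, with a ratio of 0.877.

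In the KO lists the same step gave a ratio of 1.48, with 38.2% of E16.5 peaks new, 18.0% of E13.5 peaks gone and a median change of 638 bp in 1 to 1 peaks. The values in het were 1.83, 45.8%, 13.3% and 952 bp, and the difference between genotypes was not tested.

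Histone genes had few calls, and 4 of 72 start windows lost (5.56%, beside 1.54% of all windows), those of H2ac1, H2bc1, H3f4 and H1f7, which encode testis forms of the histones. For 3 of the 4 the start was called in E13.5 KO, and for 0 in E16.5 KO or in het after birth. H2ac4, a histone H2A gene, was the member with a gained start. Of 360 Zfp zinc finger genes 51 gained (14.2%, beside 19.5% of all genes) and 55 lost (15.3%, beside 7.51%): Zfp536, a neural repressor gene, went from 8.67 to 22.1 kb, and Zfp951 from 13.4 to 3.35 kb, with 11.9 kb at P3. Of 87 serpin and killer cell lectin-like genes 21 gained (24.1%) and 3 lost (3.45%). Of 70 defensin genes 5 gained (7.14%) and 0 lost, and of 53 keratin genes 5 gained (9.43%) and 1 lost (1.89%), shares below those over all genes. Their median bodies were short, 1.92 and 7.07 kb, and of all genes under 10 kb 3.46% gained.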
